A study of Capra hircus with 3 samples.

Results

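The members described here are 10 cell cycle brakes: 7 inhibitors of cyclin-dependent kinases (CDKs) and the 3 pocket proteins. They were taken by symbol and not by a cut on measured values, though earlier results of these data were known when they were chosen. Each symbol matched 1 of the 27271 features in the files. CDKN1A (p21), CDKN1B (p27) and CDKN1C (p57) make up the CIP/KIP family. CDKN2A, CDKN2B, CDKN2C and CDKN2D make up the INK4 family, and RB1, RBL1 (p107) and RBL2 (p130) the pocket family. The question put to them is how these brakes are set in fetal male germ cells, which in mouse undergo mitotic arrest. The labels do not place the goat stages sampled here before, in or after such an arrest.

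INK4 proteins bind CDK4 and CDK6 and keep D-type cyclins from activating them, while CIP/KIP proteins mainly bind and block complexes that hold CDK2. Active CDKs phosphorylate pocket proteins, which in their unphosphorylated form hold E2F factors and repress the genes of DNA synthesis. In fetal mouse testis, male germ cells stop dividing in G0/G1 before birth. In that species CDKN1B and CDKN2B have been tied to the arrest, and germ cells without RB1 enter it late. Much of this control acts on protein amount and phosphorylation, which RNA counts do not measure.

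Droplet single-cell RNA libraries had been made from testis of the domestic goat (Capra hircus), labelled male, at the embryonic stages E85, E105 and E125, each as a single library. The labels give no genotype, treatment or number of animals. The libraries held between 40741902 and 49692252 unique molecular identifiers (UMIs, counted RNA molecules), and 6328, 7069 and 7319 barcodes passed the filters for E85, E105 and E125. Barcode sequences shared between libraries numbered 10, 10 and 6. A stage without replicates allows no replicate check and no test. Intervals below are 95% intervals that cover counting error only, exact except for ratios of ratios.

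Cells were put in classes by marker genes that include no member, and cells that met no gate stayed ungated. The germ gate took 85 cells at E105 and 237 at E85, led by STK31, ELAVL2, MAEL, DDX4 and DAZL. The Sertoli gate took 1126 cells at E105 and 798 at E85, led by INHA and AMH. The library labelled E125 went against its label of testis. It held 0 Sertoli-gated cells, a count that limits their share to 0.0410% of its cells, and 1 germ-gated cell. It held 104 oocyte-gated cells led by ZP3 and FIGLA and 374 pregranulosa-gated cells led by FST and HSD17B1. AMH, a Sertoli marker, was also among the 10 leading genes of the pregranulosa gate. Germ cells were therefore compared between E105 and E85, and the library labelled E125 was described apart.

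Over all barcodes kept the members ranged from abundant to nearly absent. CDKN1C had 19661 UMIs and CDKN1B 9140, followed by RBL2 with 3455, RBL1 with 2514, RB1 with 2183 and CDKN1A with 1880. CDKN2A had 268 UMIs, CDKN2C 33, CDKN2D 25 and CDKN2B 2. Counts come from one end of a transcript, so these totals say how finely each gene can be measured and do not rank the genes by RNA amount. The plot of levels by class shows all 10 members. Levels are the gene's summed UMIs per 1000000 UMIs of the class (CPM).

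**Figure D1:**
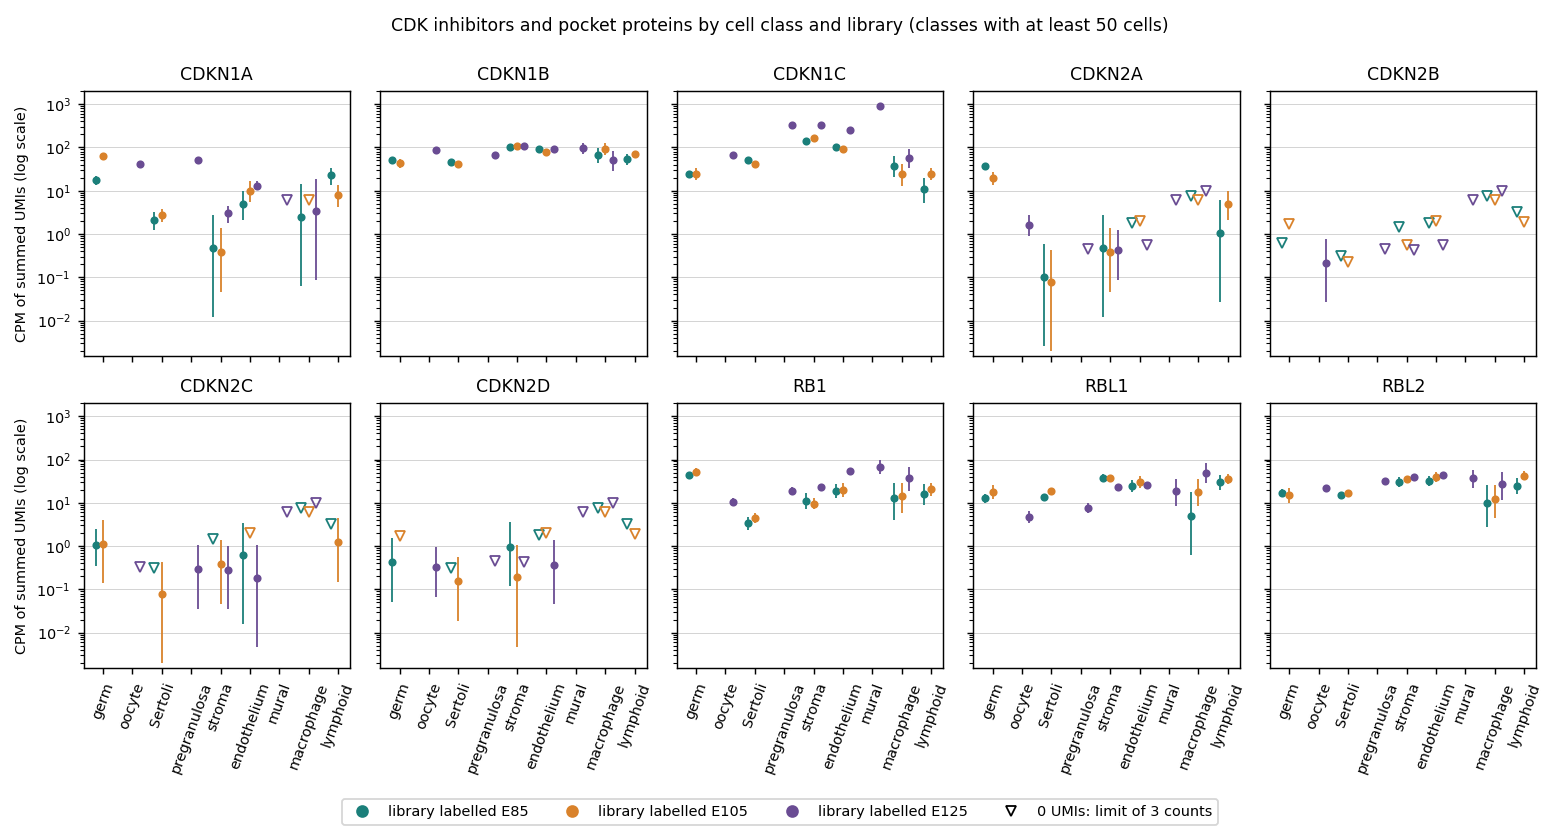
Level of each member by cell class and library. The y axis is CPM of summed UMIs on a log scale, points are classes with at least 50 cells, bars are exact 95% Poisson intervals, and open triangles mark 0 UMIs at the limit of 3 counts. CDKN2A stood at 19.2 CPM (E105) and 36.5 CPM (E85) in germ-gated cells and at 4.95 CPM or less in the other classes with a UMI, while CDKN1B lay between 42.0 and 109 CPM in every class shown.

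CDKN1A, an inhibitor known to be induced by DNA damage, differed more between the stages in germ cells than any other member measured. It had 111 UMIs in the 85 germ-gated cells of E105 and 82 UMIs in the 237 cells of E85. Its level was 62.7 CPM at E105 (51.6 to 75.5) and 17.3 CPM at E85 (13.8 to 21.5), and the intervals did not overlap. The ratio was 3.63 (2.70 to 4.88). CDKN1A at E105 was thus higher in the germ gate than in any other class of that library, the next being endothelium at 9.95 CPM (5.57 to 16.4). At E85 the germ gate was second to the lymphoid gate, at 22.5 CPM (13.9 to 34.4), and the intervals of those classes overlapped.

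A small share of germ cells carried much of this CDKN1A RNA at both stages. At E105, 48 of 85 germ-gated cells had 0 CDKN1A UMIs, 28 had 1 or 2, and 9 had 3 or more. At E85, 181 of 237 had 0, 50 had 1 or 2, and 6 had 3 or more. The highest single cell held 21 UMIs at E105 and 5 at E85. The 5 highest cells held 50.5% of the UMIs at E105 and 23.2% at E85, but 5 cells are a larger share of the 85 than of the 237. As a share of cells the concentration was alike: 50% of the UMIs or more lay in 5.88% of cells at E105 (5 cells) and 6.75% at E85 (16 cells). Without the 2 highest cells of each library the ratio was 2.73. Without the 5 highest the levels were 33.7 CPM at E105 and 13.7 CPM at E85. The 5 highest cells at E105 had a median of 15814 UMIs and 14.5 CPM of AMH, against 19530.5 UMIs and 101 CPM in the other 80 cells. The 2 highest there were deeper, at a median of 30042 UMIs. At E85 the median was 33434 UMIs in the 2 highest, 21544 in the 5 highest and 18888 in the other 232. None of the 5 highest cells at E105 had 3 or more Sertoli markers on, and only 2 of all 85 did. The gate asks for 2 times the markers of every other class, so this count is no check for mixed cells.

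**Figure D2:**
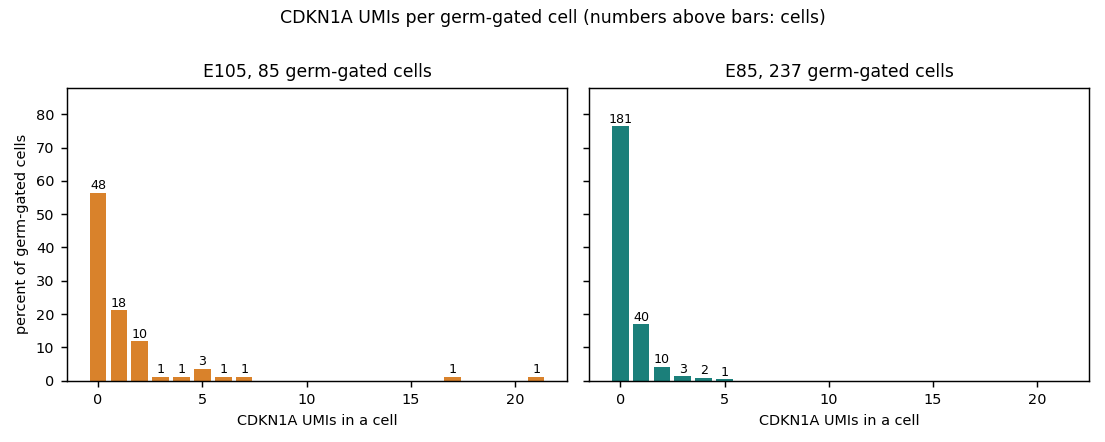
CDKN1A UMIs in single germ-gated cells. The x axis is the number of CDKN1A UMIs in a cell, the y axis the percent of germ-gated cells, and the numbers above the bars count cells. E105 (left) has a tail of single cells up to 21 UMIs, with 48 of 85 cells at 0, and E85 (right) ends at 5 UMIs, with 181 of 237 cells at 0.

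The share of germ-gated cells with any CDKN1A UMI was 43.5% at E105 and 23.6% at E85. With every cell thinned to 9100 UMIs, 18 of 77 cells had one at E105 (23.4%, 14.5 to 34.4) and 26 of 213 at E85 (12.2%, 8.13 to 17.4). Thinned to 6400 UMIs, which kept all 85 cells of E105 and 229 of E85, 27.1% had one at E105 (18.0 to 37.8) and 10.9% at E85 (7.19 to 15.7). The share was higher at E105 at both depths, with overlapping intervals at 9100 UMIs and separate ones at 6400. Sertoli-gated cells thinned to 6400 UMIs had a CDKN1A UMI in 1.84% at E105 (1.10 to 2.90) and 1.45% at E85 (0.726 to 2.58). Unthinned, the shares were 2.58% and 2.26%, at a lower median depth of 11196 and 11068 UMIs against 19462 and 19071 in germ-gated cells. Free RNA, gauged by AMH in the germ gate, could account for at most 0.156 CPM of germ CDKN1A at E105 and 0.319 CPM at E85. The median mitochondrial share of germ-gated cells was 8.38% at E105 and 7.82% at E85.

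CDKN1B, the inhibitor tied to mouse germ cell arrest, showed no increase of 1.5-fold in the later germ cells. It had 77 UMIs at E105 and 237 at E85. The level was 43.5 CPM at E105 (34.3 to 54.4) and 50 CPM at E85 (43.8 to 56.8), and the intervals overlapped. The ratio was 0.870 (0.664 to 1.13). CDKN1C, an imprinted inhibitor that restrains growth of the fetus and placenta, had 24.3 CPM (17.6 to 32.7) at E105 and 23.8 CPM (19.6 to 28.7) at E85. Its ratio was 1.02 (0.700 to 1.46). Both genes were found in germ cells at both stages, and neither was past 1.5-fold.

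Within the CIP/KIP family the balance of UMIs in germ cells therefore differed between the stages. CDKN1A made up 48.1% of the 231 family UMIs at E105 (41.5 to 54.7) and 19.0% of the 432 at E85 (15.4 to 23.0). CDKN1B made up 33.3% at E105 and 54.9% at E85. In Sertoli-gated cells the CDKN1A share was only 3.20% at E105 and 2.05% at E85, with overlapping intervals.

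CDKN2A was the other member past 1.5-fold, in the opposite direction. This locus encodes both the CDK4/6 inhibitor p16 and the unrelated protein ARF from different first exons, and its single feature here does not tell their transcripts apart. Germ-gated cells held 34 UMIs at E105 and 173 at E85, or 19.2 CPM (13.3 to 26.8) and 36.5 CPM (31.3 to 42.4). The ratio was 0.526 (0.353 to 0.764). The call was not stable: the ratio was 0.682 as a mean over cells and 0.723 in thinned cells, both short of 1.5-fold. Thinned to 9100 UMIs, 19.5% of cells (11.3 to 30.1) at E105 and 27.2% (21.4 to 33.7) at E85 had a CDKN2A UMI, and these intervals overlapped.

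Of the members measured, CDKN2A was also the one most tied to 1 cell class. At E85, 173 of its 192 UMIs in the library's kept barcodes lay in germ-gated cells and 16 in ungated cells. At E105 the germ gate held 34 of 53, and lymphoid-gated cells and ungated cells held 8 each. The lymphoid gate at E105 had 4.95 CPM (2.14 to 9.75), apart from both the germ gate above it and the stroma gate below it at 0.376 CPM. Sertoli-gated cells had 1 UMI in each library, and endothelium-gated and macrophage-gated cells had 0. Free RNA could account for at most 0.0333 CPM of germ CDKN2A at E105 and 0.243 CPM at E85.

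The remaining INK4 genes were too rare to compare. CDKN2B, the INK4 gene tied to arrest in mouse germ cells, had 0 UMIs in germ-gated cells of both libraries. That allows a level of up to 1.69 CPM at E105 and 0.633 CPM at E85. CDKN2C (p18) had 2 UMIs at E105 and 5 at E85, and CDKN2D (p19) had 0 and 2. All 3 stayed under the minimum of 20 UMIs in every comparison made here. Absence of these RNAs cannot be read from such counts.

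RB1, the retinoblastoma protein gene, had its highest CPM in germ cells at both stages. It had 52.0 CPM (41.9 to 63.7) at E105 from 92 UMIs and 44.5 CPM (38.7 to 50.9) at E85 from 211 UMIs, a ratio of 1.17 (0.904 to 1.5). An RB1 UMI was found in 71.8% of germ-gated cells at E105 and 51.9% at E85, and with cells thinned to 9100 UMIs in 39.0% (28.0 to 50.8) and 30.0% (24.0 to 36.7), whose intervals overlapped. In both libraries the germ gate ranked first. At E105 the lymphoid gate came next, at 21.0 CPM (14.6 to 29.4), and at E85 the endothelium gate, at 19.0 CPM (12.9 to 26.9). Neither interval reached that of the germ gate. This order is on the CPM scale, and no other scaling was made against those 2 classes. Over Sertoli-gated cells, all features had a median log2 ratio of 1.04 at E105 and 1.03 at E85 in germ-gated cells. Among classes with at least 50 cells, Sertoli-gated cells ranked last, at 4.46 and 3.41 CPM in the same order of libraries.

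RBL1, the pocket protein whose RNA is itself an E2F target in dividing cells, had 18.1 CPM (12.4 to 25.5) at E105 and 12.7 CPM (9.66 to 16.3) at E85. The ratio of 1.43 (0.900 to 2.23) was short of 1.5-fold. In thinned cells it was 0.426, and 5.19% of cells thinned to 9100 UMIs at E105 and 10.8% at E85 had an RBL1 UMI. At 6400 UMIs the shares stood the other way round, at 8.24% (3.38 to 16.2) and 5.68% (3.06 to 9.51). RBL2, the pocket protein best known from quiescent cells, had 15.3 CPM (10.1 to 22.2) at E105 and 16.9 CPM (13.4 to 21.0) at E85, a ratio of 0.904 (0.562 to 1.41). RB1 made up 60.9% of the pocket family's UMIs in germ cells at E105 (52.7 to 68.8) and 60.1% at E85 (54.8 to 65.3). In Sertoli-gated cells it made up 11.3% at E105 (8.66 to 14.3) and 10.5% at E85 (7.37 to 14.5). The intervals of the share were apart between the classes and overlapped between the stages.

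In all, 7 of the 10 members had at least 20 UMIs over both germ gates. Of these 1 was at least 1.5-fold higher at E105 and 1 at least 1.5-fold lower, where 25.6% of all 10538 features measured were past 1.5-fold, 20.4% higher and 5.21% lower. The members' share is near that background. Their median log2 ratio was 0.04, beside 0.22 over all features. Scaling by TMM (edgeR) put the typical feature 0.24 higher at E105 on the log2 scale, and with that taken off CDKN1A had a ratio of 3.06 and CDKN2A 0.445.

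Joint detection in single germ cells showed no difference beyond counting error at this depth. Among cells thinned to 9100 UMIs, RB1 was found in 38.9% of the 18 cells with CDKN1A at E105 (17.3 to 64.3) and in 39.0% of the 59 without (26.5 to 52.6). At E85 RB1 was found in 26.9% of the 26 cells with CDKN1A (11.6 to 47.8) and in 30.5% of the 187 without (24.0 to 37.6). CDKN2A was found in 33.3% of E105 cells with CDKN1A (13.3 to 59.0) and in 15.3% of those without (7.22 to 27.0). Every interval pair overlapped, and the widths leave room for sizeable differences.

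Among classes with at least 50 cells in a library, CDKN1B, CDKN1C, RBL1 and RBL2 took another order than CDKN1A, CDKN2A and RB1, with germ cells in no case first. CDKN1B ranked first in stroma at E105, at 109 CPM (101 to 119), and at E85, at 104 CPM (90.5 to 119), and last in Sertoli-gated cells, at 42.0 and 46.3 CPM. Stroma overlapped its next neighbour each time, macrophages at 93.1 CPM in E105 and endothelium at 91.1 CPM in E85. CDKN1C also ranked first in stroma and there stood apart from endothelium, the next class, which had 90.2 CPM at E105 (75.7 to 107) and 104 CPM at E85 (88.9 to 121). RBL1 ranked first in stroma, at 37.2 CPM in E105 and 37.4 CPM in E85, with overlap to lymphoid cells at 35.3 and 30.0 CPM. RBL2 ranked first in lymphoid cells at E105 and in endothelium at E85, each overlapping the next class. Among these classes stroma was first for 3 of the 4 genes at both stages, and the germ gate was first for RB1 and CDKN2A at both. The smaller classes, left out of this order, could lie higher: mural cells had 192 CPM of CDKN1C at E105 (49 cells) and 198 CPM at E85 (33 cells), and 52.3 and 52.1 CPM of RBL2.

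Other classes were compared between the same libraries to see which of these differences went beyond germ cells. In Sertoli-gated cells, 0 of the 6 members measured were past 1.5-fold, against 19.5% of all features (14.8% higher, 4.65% lower). CDKN1C had 41.8 CPM at E105 (38.4 to 45.5) and 52.4 CPM at E85 (48.0 to 57.2), a ratio of 0.798 (0.706 to 0.902). RBL1 had 18.3 CPM (16.1 to 20.8) at E105 and 13.7 CPM (11.5 to 16.3) at E85, a ratio of 1.33 (1.07 to 1.66). Those 2 intervals left out 1, and the other 4 members' intervals held it. The count of 0 was not stable, since other gates and a free RNA correction put 1 or 2 members past the line. With 5 markers asked of a gate, RBL2 had a ratio of 1.94 and CDKN1C 0.564.

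In stroma-gated cells 0 of the 5 members measured were past 1.5-fold, against 21.9% of all features (16.3% higher, 5.62% lower). CDKN1C, at 163 CPM (153 to 175) at E105 and 139.9 CPM (124 to 157) at E85, had a ratio of 1.17 (1.02 to 1.34). CDKN1B had 109 and 104 CPM, a ratio of 1.05 (0.897 to 1.24). The clusters led by stroma-gated cells were mixed unevenly. Counting all their cells, gated or not, the 3 with most cells of these libraries had 1661 from E105 and 632 from E85, 467 from E105 and 1392 from E85, and 1126 from E105 and 65 from E85. In endothelium-gated cells 1 of 6 was higher, against 20.6% of all features (4.52% lower), namely CDKN1A with 15 UMIs at E105 and 8 at E85 (ratio 2.03, 0.809 to 5.54).

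Lymphoid-gated cells differed in 3 of the 6 members measured, against 24.3% of all features (12.9% higher, 11.4% lower). CDKN1A had 8.04 CPM at E105 (4.28 to 13.8) and 22.5 CPM at E85 (13.9 to 34.4), a ratio of 0.358 (0.165 to 0.749) that rests on 13 and 21 UMIs. Those UMIs lay in 6 of 239 cells at E105 and 9 of 132 at E85. The shares of cells, 2.51% (0.927 to 5.38) and 6.82% (3.16 to 12.5), had overlapping intervals. CDKN1C was higher, with 24.8 CPM in E105 and 10.7 CPM in E85 cells (ratio 2.31, 1.14 to 5.19). So was RBL2, with 42.7 CPM in E105 and 24.6 CPM in E85 cells (ratio 1.73, 1.07 to 2.91). VPREB1, a gene of B cell precursors, was among the 10 leading genes of this gate at E85 and not at E105, and its part in these differences was not tested. In macrophage-gated cells 1 of the 2 members measured was past the line, against 27.4% of all features (17.7% higher, 9.69% lower). It was CDKN1C, with 12 UMIs at E105 and 15 at E85 (ratio 0.642, 0.274 to 1.47).

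**Figure D3:**
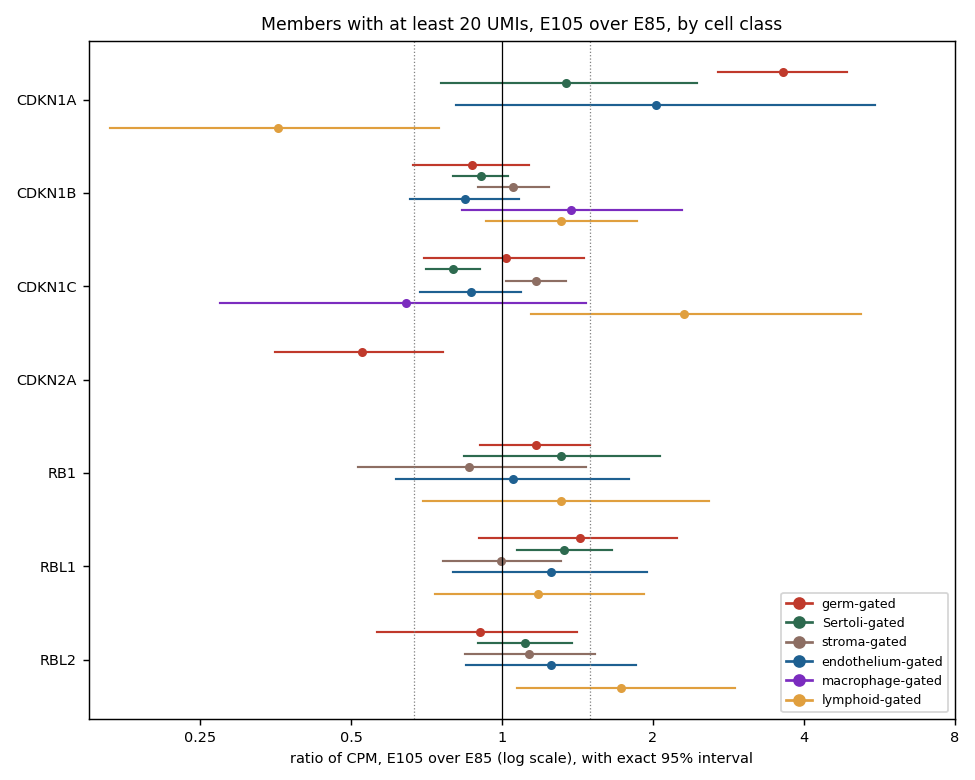
Ratio of CPM, E105 over E85, by cell class, for members counted at 20 UMIs or more in the pair. The x axis is on a log scale, bars are exact 95% intervals, the solid line marks 1 and dotted lines mark 1.5-fold. CDKN1A lies at 3.63 in germ-gated cells and 0.358 in lymphoid-gated cells, while CDKN1B lies between 0.844 and 1.37 in all 6 classes.

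The CDKN1A difference in germ cells was set against that in other classes as a ratio of ratios. It was 2.70 times the one in Sertoli-gated cells (1.46 to 5.01) and 10.1 times the one in lymphoid-gated cells (4.79 to 21.4). Against endothelium-gated cells it was 1.78 times (0.722 to 4.40), an interval that holds 1. The value against lymphoid-gated cells rests on CDKN1A UMIs in 6 of those cells at E105 and 9 at E85. For CDKN1B, RB1 and RBL1 the interval held 1 against every class measured. CDKN1C and RBL2 left 1 out against lymphoid-gated cells alone, at 0.441 (0.203 to 0.958) and 0.521 (0.274 to 0.991).

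Germ cells were next set against Sertoli cells, their neighbours in the cords. At both stages 3 of the 7 members measured were at least 1.5-fold higher in germ-gated cells and 1 was lower, where 79.0% of all features at E105 (59.9% higher, 19.1% lower) and 78.1% at E85 (60.2% higher, 17.9% lower) were past 1.5-fold. A count below the background is no result about the members, so only their values are given. CDKN1A had 62.7 CPM in germ-gated and 2.77 CPM in Sertoli-gated cells at E105 (ratio 22.6, 15.4 to 34.0), and 17.3 and 2.06 CPM at E85 (ratio 8.38, 5.09 to 14.4). RB1 had ratios of 11.6 (8.30 to 16.5) at E105 and 13.1 (9.02 to 19.5) at E85. CDKN2A, with 1 Sertoli UMI in each library, had a ratio of 249.7 (41.9 to 10149) at E105 and 354 (62.6 to 14046) at E85. These 3 genes were higher in germ-gated cells at both stages and under every scaling tried.

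CDKN1C was the lower member, with 24.3 CPM in germ-gated and 41.8 CPM in Sertoli-gated cells at E105 (ratio 0.581, 0.415 to 0.793). At E85 it had 23.8 and 52.4 CPM (ratio 0.455, 0.367 to 0.558). CDKN1B, RBL1 and RBL2 had ratios between 0.905 and 1.11 on the CPM scale. That scale matters here, since the median log2 ratio of all features was 1.04 at E105 and 1.03 at E85. Scaling by TMM shifted ratios by 1.31 at E105 and 1.02 at E85 on the log2 scale, and with it CDKN1B, RBL1 and RBL2 were lower than in Sertoli-gated cells too. The split was then 3 higher and 4 lower at both stages, in place of 3 higher and 1 lower.

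**Figure D4:**
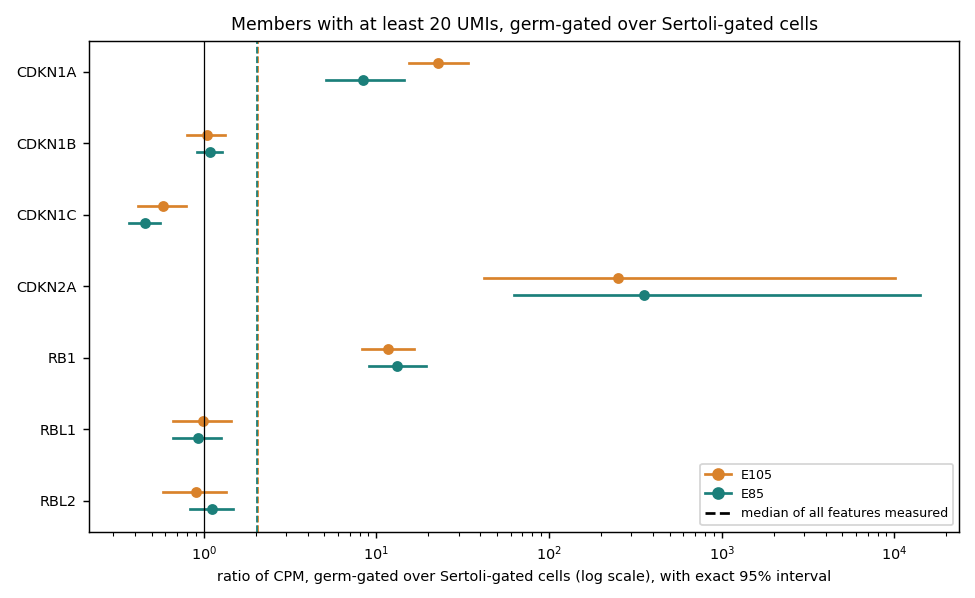
Ratio of CPM, germ-gated over Sertoli-gated cells, for members with at least 20 UMIs, at E105 (upper point) and E85 (lower point). The x axis is on a log scale, bars are exact 95% intervals and dashed lines mark the median of all features. CDKN1A, CDKN2A and RB1 lie right of the dashed lines, at 8.38 to 354, and CDKN1B, CDKN1C, RBL1 and RBL2 lie left of them, at 0.455 to 1.11.

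The members were then read against UMIs of 18 G2/M genes, the genes of cell division, in cells thinned to 6400 UMIs. Of the germ-gated cells 95.3% at E105 and 91.7% at E85 had 5 or more G2/M UMIs, and 0 cells had none. Among Sertoli-gated cells 9.63% at E105 and 7.11% at E85 had 5 or more. These counts of UMIs are no phase call, and 18 of 18 G2/M genes were measured in germ cells with a median log2 ratio of 0.20 between the stages, beside 0.22 for all features. Germ cells low in G2/M UMIs, 4 at E105 and 19 at E85, were too few to compare the members in them.

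Sertoli-gated cells could be split. RBL1 was higher where G2/M UMIs were high: at E105 it had 36.8 CPM (27.8 to 47.8) in cells with 5 or more and 15.4 CPM (12.6 to 18.6) in cells with 0. At E85 it had 27.7 CPM (18.2 to 40.3) and 8.82 CPM (6.41 to 11.8). RBL2 had 26.3 CPM (18.8 to 35.8) in cells with 5 or more and 14.1 CPM (11.5 to 17.2) in cells with 0 at E105, and 22.6 and 13.0 CPM at E85 with overlapping intervals. CDKN1C had 36.8 and 39.5 CPM at E105 and 33.8 and 53.3 CPM at E85, in the same order of cells, and CDKN1B 38.1 and 41.4 CPM and 49.2 and 39.3 CPM. Of the members measured, RBL1 alone had intervals apart in both libraries. Cells with more G2/M UMIs also held more UMIs in all, with medians of 15602 against 11632 at E105 and 16609.5 against 10899.5 at E85, and the part of depth in the split was not tested.

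**Figure D5:**
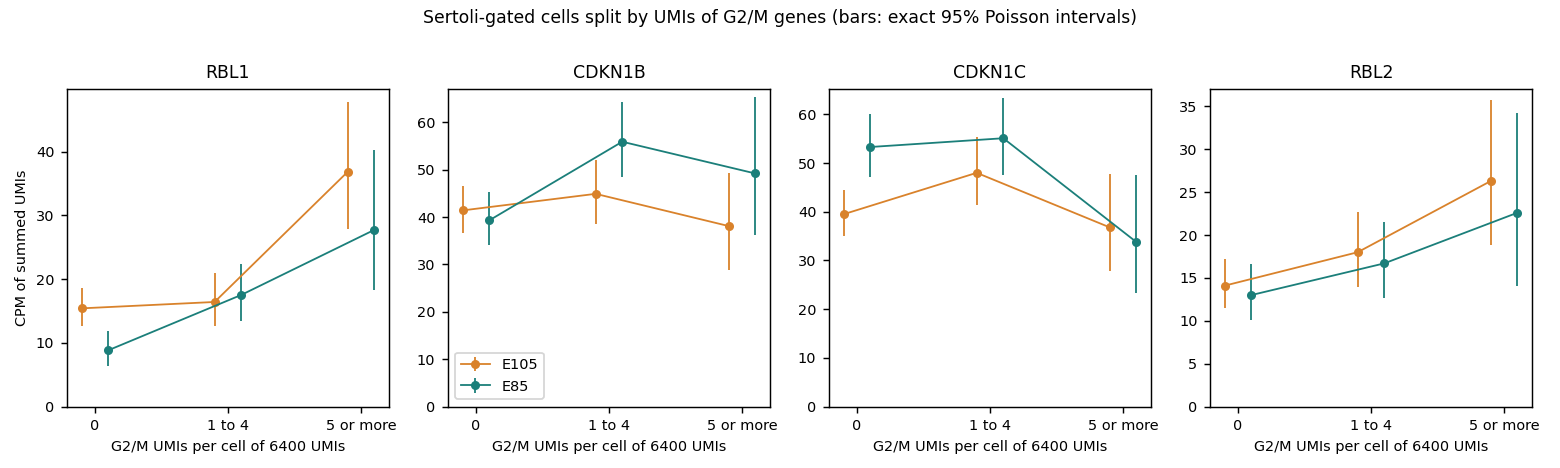
RBL1, CDKN1B, CDKN1C and RBL2 in Sertoli-gated cells split by G2/M UMIs per cell thinned to 6400 UMIs. The y axes are CPM from 0 and bars are exact 95% Poisson intervals. RBL1 reaches 36.8 CPM (E105) and 27.7 CPM (E85) in cells with 5 or more G2/M UMIs, and lies at 15.4 and 8.82 CPM in cells with 0, while CDKN1B and CDKN1C show no such order in both libraries.

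The genes that act around the members were described by lists in germ-gated cells, E105 over E85. Each count in germ-gated cells is read against 20.4% of features higher and 5.21% lower. Of the cyclins and CDKs that the inhibitors bind, 3 of 7 measured were higher and 0 lower, with a median log2 ratio of 0.54. The highest were CCNA2 (ratio 1.83, 1.09 to 3.03) and CCNE2 (1.83, 0.881 to 3.68), the lowest CCNE1 (1.28) and CDK4 (1.15). Of the E2F factors and subunits of the DREAM complex, which pocket proteins hold, 4 of 12 were higher and 0 lower. E2F2 (ratio 2.34, 1.06 to 5.12) and E2F8 (1.98, 1.05 to 3.67) led, and LIN37 (0.918) and E2F6 (0.877) came last. The difference in E2F2 was not particular to germ cells. In Sertoli-gated cells of the same libraries its ratio was 5.96 (2.71 to 15.5). It was the 1 gene of 12 higher there, with 0 lower, against 14.8% and 4.65% of all features.

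Of the genes that control or degrade KIP proteins, 2 of 5 were higher. They were CUL4A (1.96, 1.18 to 3.22) and DTL (1.88, 1.27 to 2.77), parts of a ubiquitin ligase that acts on CDKN1A protein. DDB1, another part of that ligase, was not past 1.5-fold, at 1.07 (0.883 to 1.29). FOXO1, a factor known to drive CDKN1B, had a ratio of 1.17.

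Of the S phase genes that E2F drives, 5 of 17 were higher and 0 lower, with a median of 0.30. SLBP, which binds histone mRNA, was at 149.7 CPM at E105 and 48.9 CPM at E85 (ratio 3.06, 2.55 to 3.66), and TYMS had a ratio of 2.14. RFC4 (0.919) and POLA1 (0.872) were lowest. SLBP was also the highest of this list in Sertoli-gated cells of the same libraries, at 1.96 (1.62 to 2.39). In those cells 1 of 17 S phase genes was higher and 1 lower, with a median of 0.15. Of the G2/M genes 1 of 18 was higher and 0 lower, from AURKB (1.62) and CDK1 (1.44) down to CENPF (0.923) and PLK1 (0.893). Of 9 genes of TGF-beta signalling, a pathway that induces CDKN2B in other cells, 0 were higher and 1 lower, with a median of 0.00. SMAD2 (1.31) and SMAD4 (1.23) were highest, TGFB2 (0.706) and TGFBR1 (0.571, 0.311 to 0.989) lowest.

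The library labelled E125 gave another setting for the same genes. Of the 6 members measured there, 4 were at least 1.5-fold lower in oocyte-gated than in pregranulosa-gated cells and 0 were higher, where 77.4% of all features were past 1.5-fold, 44.6% higher and 32.8% lower. CDKN1C had 67.8 CPM in oocyte-gated cells (62.6 to 73.3) and 322 CPM in pregranulosa-gated cells (308 to 335), a ratio of 0.211 (0.193 to 0.231). RB1 had 10.6 and 19.2 CPM (ratio 0.553, 0.421 to 0.724), RBL2 21.6 and 32.7 CPM (0.660, 0.542 to 0.802) and RBL1 4.77 and 7.62 CPM (0.626, 0.409 to 0.953). The 3 pocket gene differences turned round under another gate or in thinned cells, while the CDKN1C ratio lay between 0.170 and 0.415 under the alternatives.

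CDKN1B had 86.8 CPM in oocyte-gated and 66.7 CPM in pregranulosa-gated cells (ratio 1.30, 1.16 to 1.46), and CDKN1A 41.3 and 51.1 CPM (0.807, 0.696 to 0.936). Neither ratio was stable. Under the alternatives CDKN1B ran from 1.19 to 2.20 and CDKN1A from 0.541 to 1.05. The values of 2.20 and 0.541, both past 1.5-fold, were those of thinned cells. Oocyte-gated cells were very deep, with a median of 86539 UMIs against 9859.5 in pregranulosa-gated cells. CDKN2A had 15 UMIs in 15 oocyte-gated cells, 1.62 CPM (0.909 to 2.68), and 0 in pregranulosa-gated cells, which allows up to 0.440 CPM. CDKN1A was found in 64 of 104 oocyte-gated cells, with 19 UMIs in the highest, and 17 cells held 50% of its UMIs or more. RB1 made up 28.7% of the pocket family's UMIs in oocyte-gated cells (24.0 to 33.9) and 32.3% in pregranulosa-gated cells (27.7 to 37.1), below its share in germ-gated cells of E105 and E85.

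CDKN1C reached its highest level among all classes with at least 50 cells in mural cells, the contractile cells around vessels, of the library labelled E125. There it had 429 UMIs in 85 cells, 886 CPM (804 to 974), and made up 90.1% of CIP/KIP UMIs. Its 7 highest cells held 50% of them or more. The 49 mural cells of E105 had 192 CPM (132 to 269). In stroma and endothelium CDKN1C was also higher in the library labelled E125 than at E105: 338 against 163 CPM in stroma (ratio 2.07, 1.91 to 2.24) and 247 against 90.2 CPM in endothelium (2.73, 2.29 to 3.29).

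RB1 was higher in the library labelled E125 in the same classes, at 23.2 CPM against 9.59 CPM at E105 in stroma (2.42, 1.76 to 3.39) and 55.0 CPM against 19.9 CPM at E105 in endothelium (2.76, 1.89 to 4.17). In stroma 3 of 6 members were higher and 1 lower, against 52.6% of all features past 1.5-fold (21.4% higher, 31.2% lower). In endothelium 2 of 6 were higher, against 44.9% (24.9% higher, 20.1% lower). CDKN1A in stroma had 21 UMIs there against 2 at E105 (ratio 7.91, 1.93 to 69.6), and RBL1 was the lower one, at 22.7 CPM against 37.2 CPM at E105 (0.609, 0.491 to 0.753). In macrophages 3 of 3 were past the line, against 44.9% (24.4% higher, 20.6% lower): CDKN1C (2.33) and RBL1 (2.74) higher and CDKN1B (0.537) lower, on 61 UMIs or fewer each. Free RNA, gauged by FST, could give macrophages of the library labelled E125 up to 231 CPM of CDKN1C, of which 56.7 CPM were measured, and 70.3 CPM of CDKN1B, of which 50 CPM were measured. That limit is loose, since it also allows 22.3 CPM of CDKN1A, of which 3.33 CPM were measured. FST had 187 CPM in these macrophages against 240.5 CPM in the library, and ZP3 90.0 CPM against 2109 CPM. No difference is read from CDKN1C and CDKN1B in macrophages. For RBL1 the limit was 12.2 of 50 CPM, and its ratio rests on 15 UMIs in the library labelled E125 and 9 at E105. Stage, animal and the tissue in the library cannot be told apart in these ratios, and the main stroma clusters of this library held 0 cells of the others. A cluster led by endothelium-gated cells held 710 cells of it, gated or not, and 1 cell from each of the other libraries.

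Likeness between genes was described over 18 sums of a class and library, by Pearson's r of log2(CPM + 10) over 4944 candidate genes and for members with at least 200 UMIs. The points share libraries and depth, and no test was made. CDKN2A was most like ATP6V1C2 (r = 0.967), MORC1 (0.958), a germ gate marker, and AREG (0.956). CDKN1C was most like CALCOCO1 (0.961), PKD2 (0.955) and SYDE1 (0.952), and RB1 like ROCK1 (0.926), ND1 (0.905) and KLF10 (0.903). RBL1 was most like LMNB1 (0.913), EZH2 (0.895) and DNMT1 (0.876). RBL2 was most like TIMP1 (0.849), SMARCC2 (0.810) and SYNE1 (0.804). CDKN1A, with PLAA (0.808), IMPDH1 (0.804) and DSP (0.800), and CDKN1B, with LPP (0.800), WLS (0.786) and RFTN2 (0.777), had the weakest likeness of these members.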

How the data were processed

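The deposited matrices hold raw UMI counts per feature and barcode, made by the authors with Cell Ranger. The submitters' processing notes name its version 3.1, and the matrices carry 6.0.0, per the file headers. No coordinates are printed, since a genome build is not given in the sources used here. A barcode was kept with 1000 or more UMIs, 500 or more genes and no more than 20% mitochondrial UMIs (13 genes). A marker was on at a Poisson upper tail under 0.05, given the cell's depth and the marker's mean share. A gate needed 3 markers on and 2 times those of every other class, with the oocyte gate taken before the germ gate. It left 3809, 3029 and 4118 cells ungated in E85, E105 and E125. Doublets were not removed, except in an alternative without the top 6% of scores.

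Counts were summed per class and library and given as CPM. Intervals were Poisson for levels, Clopper-Pearson for shares and the exact binomial split for ratios, and those of a ratio of ratios were normal on the log scale. A member was called at 1.5-fold with at least 20 UMIs over both groups, and a count of 0 was given the limit of 3 counts. No p-value was computed. Steps were tested on simulated data. Alternatives used edgeR 4.0.16 and DESeq2 1.42.0 for scaling only, in R 4.3.3; other steps used Python 3.11.15. Named genes are the members, the 2 highest and 2 lowest of each list given, and the 3 genes most like each member. The members and lists were chosen with earlier results of these data known. The classes compared besides germ, Sertoli and stroma at E105 over E85, all comparisons of the library labelled E125 with E105, the minimum of 200 UMIs for likeness and the CDKN1A ratio without its 2 highest cells were added after seeing the data. One further gene list is not reported here.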

Additional observations from a re-analysis of the deposited data

Results flagged for a closer look

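CDKN1A was higher at E105 than at E85 in germ-gated cells, with a ratio of 3.63, and lower in lymphoid-gated cells, with a ratio of 0.358. Both intervals left out 1, on opposite sides. The lymphoid ratio rests on 13 UMIs in 6 cells at E105 and 21 UMIs in 9 cells at E85. The shares of lymphoid-gated cells with a CDKN1A UMI had overlapping intervals. With 1 library per stage the difference was not tested over samples.

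CDKN1C lay on opposite sides of 1 in the same way. Its ratio, E105 over E85, was 1.17 in stroma-gated cells and 2.31 in lymphoid-gated cells, and 0.798 in Sertoli-gated cells. These differences were not tested over samples either.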

How the results depend on the processing

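No paired analysis was possible because each stage is 1 library and the groups share fewer than 2 replicate numbers. Of 550 single ratios under alternatives, 487 stayed inside the main interval, 60 left it, and 3 that were called changed direction. Those 3 were RB1 (1.11, gate with 4 times the markers), RBL1 (1.32, thinned cells) and RBL2 (1.26, thinned cells) in oocyte-gated over pregranulosa-gated cells. The CDKN1A ratio in germ-gated cells ran from 2.73 to 4.08 over its alternatives. Leaving out the 5 highest cells of each library was not among them, and put CDKN1A at 33.7 CPM at E105 and 13.7 CPM at E85. Of the counts of members past the fold, 87 stayed within 1.5 times and 18 moved, as follows, and the cause was not tested.

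In germ-gated cells the count was 1 as a mean over cells and 1 at a fold of 2, in place of 2. In Sertoli-gated cells, in place of 0, it was 2 with 5 markers, 2 with 4 times the markers, 1 by cluster, 1 without the highest doublet scores, 2 with no minimum of UMIs and 2 with free RNA taken off. In stroma-gated cells it was 2 with no minimum, in place of 0. Germ-gated over Sertoli-gated cells gave 7 at E105 and 7 at E85 under TMM and under DESeq2 size factors, in place of 4. In oocyte-gated over pregranulosa-gated cells it was 1 with 5 markers, 8 with no minimum and 1 at a fold of 2, in place of 4. For the library labelled E125 over E105 it was 2 with 5 markers in stroma, in place of 4, and 4 with no minimum in endothelium, in place of 2. The 85 germ-gated cells of E105 and their 1769992 UMIs set the width of the intervals in germ cells.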
